A study of Arabidopsis thaliana with 27 samples.

Results

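The comparison described here sets stamens taken 22 h after jasmonate treatment (JA 22 h) against stamens taken 8 h after it (JA 8 h). It rests on 6 of the 27 arrays analysed, 3 per time, chosen by the treatment and the time in their labels. All 6 are of opr3, an Arabidopsis thaliana mutant in the gene for OPDA reductase 3. The labels do not give the allele or the background. Buds at floral stage 12 received 0.03% methyl jasmonate, which the labels call JA, and stamens were dissected and frozen 8 h or 22 h later. The plants were kept on soil at 22 °C without a dark period. The other groups used here are untreated opr3 (n = 3), JA at 0.5 h (2 distinct arrays), JA at 2 h (n = 3, of which replicate 3 is titled opr2 while its treatment text says opr3), opr3 buds given 0.03% OPDA and sampled at the same times (n = 2 and n = 3), and 1 array of wild-type Ws stamens. No mock-treated array is among those analysed, so the age of the buds and the time since treatment cannot be told apart. The labels leave unsaid whether replicate arrays stem from different plants. The p-values therefore reflect the spread among these samples alone, and that spread may be technical.

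Jasmonates are made from plastid lipids through OPDA, which OPR3 reduces in the peroxisome on the way to jasmonic acid, and jasmonic acid acts after conjugation to isoleucine. In Arabidopsis flowers the hormone is needed for the last steps of stamen maturation, namely filament elongation, anther opening and the completion of viable pollen, and plants that cannot make it are male sterile unless it is supplied. The signal is ended by hydroxylation, further oxidation and conjugation of the hormone, and many of the genes for these steps are themselves JA-responsive.

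Values are MAS5 signals, a linear measure of a probe set's brightness that the authors scaled to the same mean on each array. Changes are differences of log2(signal + 16), which understate the change of dim genes. With a whole organ as the sample, fewer cells of a type and less RNA per cell cannot be told apart. A limma model over 25 opr3 arrays tested 13992 probe sets, and a probe set was called at a Benjamini-Hochberg adjusted p under 0.05. The number of arrays limits the precision: for the typical probe set the 95% interval of the 22 h over 8 h change reached 0.37 to each side. Each of 3 scan days holds 1 array of both times, which allows differences within a scan day to be given as well. Of the marker genes of the labelled tissue, few have a probe set paired with 1 gene. SPL, a stamen regulator of early stages, was near 0 throughout, at 2.1 to 19.4 at 8 h and 2.1 to 3.4 at 22 h. ADPG1 (AT3G57510), a polygalacturonase of anther opening, stood at 1125, 1592 and 833 on the JA 8 h arrays and at 1816, 1539.8 and 1299 on the JA 22 h arrays, which overlap, and was not called (log2 change 0.42, limma adjusted p = 0.39). The summed signal of 7 pollen markers was 2649 to 6470 at 8 h and 7013 to 11368 at 22 h. Carpel markers (2 genes) summed to 128 to 201 at 8 h and 83.3 to 128 at 22 h. Petal and sepal markers (2 genes) summed to under 32 on all 6 arrays. The part of pollen, carpel or other cells in the changes described here was not tested.

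Between 8 and 22 h, 2843 probe sets were called, 20.3% of those tested. Of these, 1141 rose (8.15%) and 1702 fell (12.2%). The rises were larger: the median log2 change was 1.12 over the called rises and -0.66 over the called falls, and among calls of at least 2-fold 647 were rises (4.62% of those tested) and 376 were falls (2.69%). Rises made up 63.2% of these and 40.1% of all calls. Over all tested probe sets the median change was -0.09. At an unadjusted p under 0.05 limma gave 31.1% of probe sets. The arrays of both times did not overlap for 31.4%, with 22 h higher for 11% and lower for 20.4%. Within the scan days of replicates 1, 2 and 3 the median change was 1.23, 1.11 and 1.03 over the called rises and -0.63, -0.81 and -0.57 over the called falls. These probe sets were called on the same arrays, so the sign of these medians follows from the choice. Over all tested probe sets the medians within these scan days were -0.12, -0.07 and -0.08. Without JA 22 h replicate 2 the counts dropped to 703 rises and 892 falls, and a fit to the 6 arrays alone called 842 and 861. Of the genes named below, 18 were not called by limma in that 6-array fit (adjusted p = 0.05 to 0.19): TUA1, TUB5, TUB9, EXPA8, EXLA2, RALFL25, NET4B, SWEET8, PME61, CYP71B6, PSAN, RCA, LHCB4.3, ATG3, ATG8D, bHLH34, AT1G66850 and AT4G04460.

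**Figure D1:**
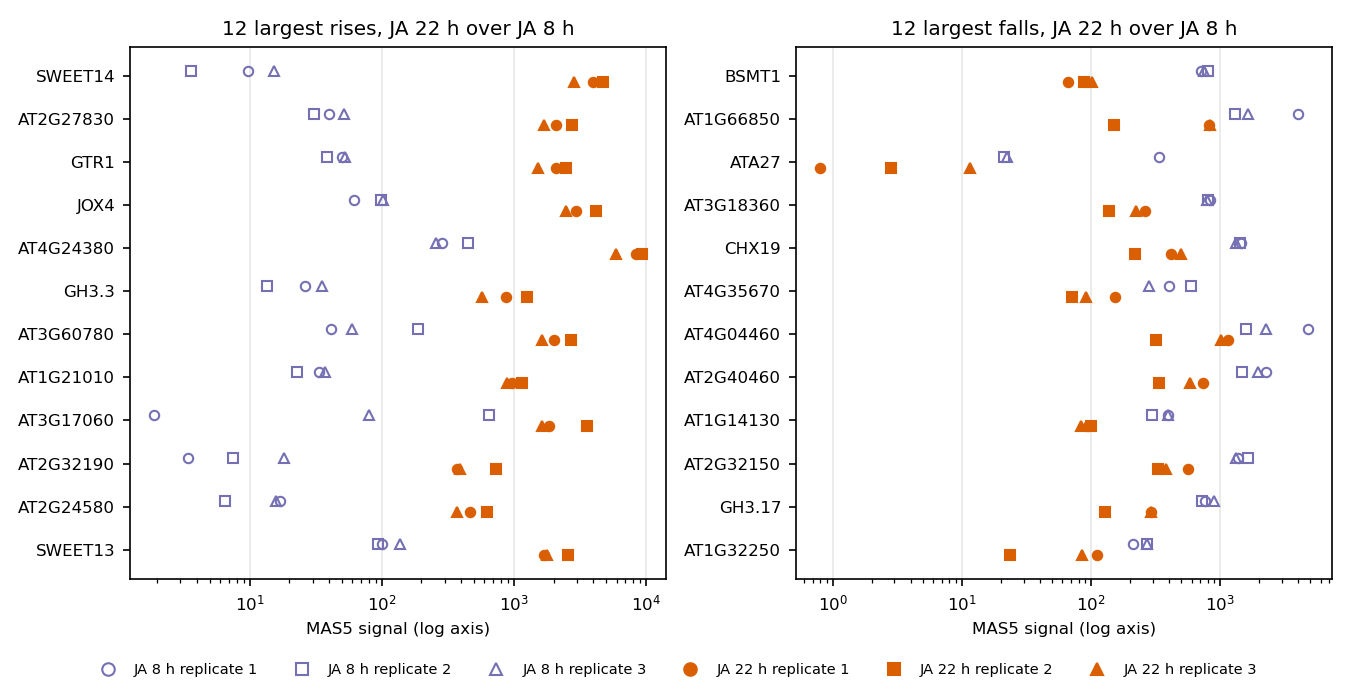
MAS5 signal (log axis) on each of the 6 arrays for the 12 genes with the largest rises (left) and the 12 with the largest falls (right) from 8 to 22 h after JA. Open purple symbols are JA 8 h and filled orange symbols JA 22 h, with the shape giving the replicate. The times do not overlap for any of the 24 genes, which the choice of genes required. SWEET14 goes from at most 15.2 to at least 2835, and JA 8 h replicate 2 (open square) is the highest 8 h array for AT3G60780 and AT3G17060.

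Among called genes whose arrays did not overlap and whose mean reached 100, the largest rise was that of the sugar transporter gene SWEET14 (AT4G25010). Its signal was 9.8, 3.6 and 15.2 on the JA 8 h arrays, at the floor of the scale, and 3957, 4714 and 2835 on the JA 22 h arrays. The change was 7.23 on the log2 scale, with a 95% interval of 6.44 to 8.03 (limma adjusted p = 6.1e-12). SWEET proteins let sucrose and hexoses pass down their gradient across membranes, and SWEET13 and SWEET14 of Arabidopsis have also been shown to carry gibberellin. The relative SWEET13 (AT5G50800) went from 100.4, 93.5 and 137 to 1701, 2555 and 1793, a rise of 3.999 (limma adjusted p = 1.1e-12). Both genes are close relatives, and how far the probe sets of one detect the RNA of the other was not tested. In both, each 22 h array was more than 10 times the highest 8 h array.

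Among the 13 tested SWEET genes, 6 rose and 2 fell, where 8.15% and 12.2% of all probe sets did, and the median change was 0.23. SWEET9 (AT2G39060), the nectary sucrose exporter, rose from 26.2, 38.7 and 35.6 to 55.1, 209 and 390.5, a change of 1.92 (limma adjusted p = 0.001), and its 22 h arrays spread widely. SWEET7, SWEET4 and SWEET10 rose by 1.01, 0.72 and 0.51 (limma adjusted p = 0.026, 0.041 and 0.006). The falls were those of SWEET3 (AT5G53190), from 717, 497 and 555 to 424, 185 and 263, and SWEET8 (AT5G40260), from 454, 150 and 291 to 141, 102 and 124. SWEET8 serves the nutrition of microspores during pollen wall formation. Without JA 22 h replicate 2 the list had 4 rises and 1 fall, and without JA 8 h replicate 1 or 3 it had 5 rises and 1 fall. Without JA 22 h replicate 1 or JA 8 h replicate 2 it had 4 rises and 2 falls. SWEET1, SWEET2, SWEET6, SWEET11 and SWEET17 were tested and not called, with changes between -0.21 and 0.23.

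GTR1 (AT3G47960), a transporter of glucosinolates that also carries jasmonoyl-isoleucine and gibberellin, had signals of 49.7, 38.3 and 52.7 at 8 h and 2069.5, 2472 and 1522 at 22 h. It rose by 4.997 with a standard error of 0.15 (limma adjusted p = 1.6e-15). Its close relative GTR2 (AT5G62680) went the other way. GTR2 stood at 1012, 899.8 and 1058 at 8 h and at 424, 206 and 388 at 22 h, and fell by 1.56 (limma adjusted p = 0.00091). At 2 h after JA, GTR2 was at 798 ± 151 (SD, n = 3) against 245 ± 127 in untreated stamens (SD, n = 3), whereas GTR1 was at 67.6 ± 11.1 against 49.5 ± 7.11. Of the other JA marker genes, the thionin THI2.1 had a mean of 1483 at 8 h and 1438 at 22 h (log2 change 0.03). NAI1, the factor behind endoplasmic reticulum bodies, had a change of -0.80 that was not called (limma adjusted p = 0.05, rounded down to the threshold). With the replicate number as a block NAI1 was also called (limma adjusted p = 0.034), so that the falls in this list of 4 tested genes came to 2 in place of 1. They also came to 2 without JA 22 h replicate 3 or JA 8 h replicate 3.

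Genes that remove jasmonates did not move together. JOX2 (AT5G05600) and JOX4 (AT2G38240) belong to the dioxygenases that hydroxylate jasmonic acid and so inactivate it. JOX4 was at 61.5, 99.4 and 103 at 8 h and at 2975, 4187 and 2497 at 22 h, a rise of 4.95 (95% interval 4.28 to 5.62, limma adjusted p = 2.4e-10). JOX2 was at 773, 959.6 and 854 at 8 h and at 432, 326 and 307 at 22 h, and it fell by 1.25 (95% interval -1.82 to -0.69, limma adjusted p = 0.0021). The time courses of both genes differ in shape as well: JOX2 stood at 25.1 in untreated stamens and 512 at 2 h, while JOX4 stood at 13.7 and 51.6. At 22 h the mean of JOX2, 355 ± 67.3 (SD, n = 3), was still above that of untreated stamens, 25.1 ± 17.6. The call of JOX2 was lost with a pseudocount of 1, where its adjusted p was 0.062. JRG21 (AT3G55970), another member of this enzyme family, went from 31.6, 50.4 and 66.5 to 19.8, 10.4 and 20.8 and fell by 0.97 (limma adjusted p = 0.012), a call lost without JA 22 h replicate 2 (adjusted p = 0.079). Without JA 8 h replicate 2 or 3 JRG21 did not reach the signal minimum and was not tested.

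In JA synthesis and modification 4 genes were tested. JMT (AT1G19640), which methylates jasmonic acid to methyl jasmonate, the compound applied here, rose from 118, 69.6 and 57.9 to 696, 652 and 387, a change of 2.61 (limma adjusted p = 1.7e-05). OPCL1 (AT1G20510), the ligase that activates OPC-8:0, the product of OPR3, with coenzyme A for chain shortening in the peroxisome, fell from 95.3, 102 and 134 to 45.3, 61.0 and 48.7, a change of -0.90 (limma adjusted p = 0.0012). The arrays of both times are apart for both genes. The 22 h mean of OPCL1, 51.7 ± 8.26 (SD, n = 3), lay near that of untreated stamens, 45.0 ± 9.5. ORA47, an activator of JA synthesis genes, and AIM1, of peroxisomal beta-oxidation, had changes of 0.03 and -0.0014 and were not called. MYC3, the 1 tested JA signalling gene, had a change of -0.18 (limma adjusted p = 0.56).

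**Figure D2:**
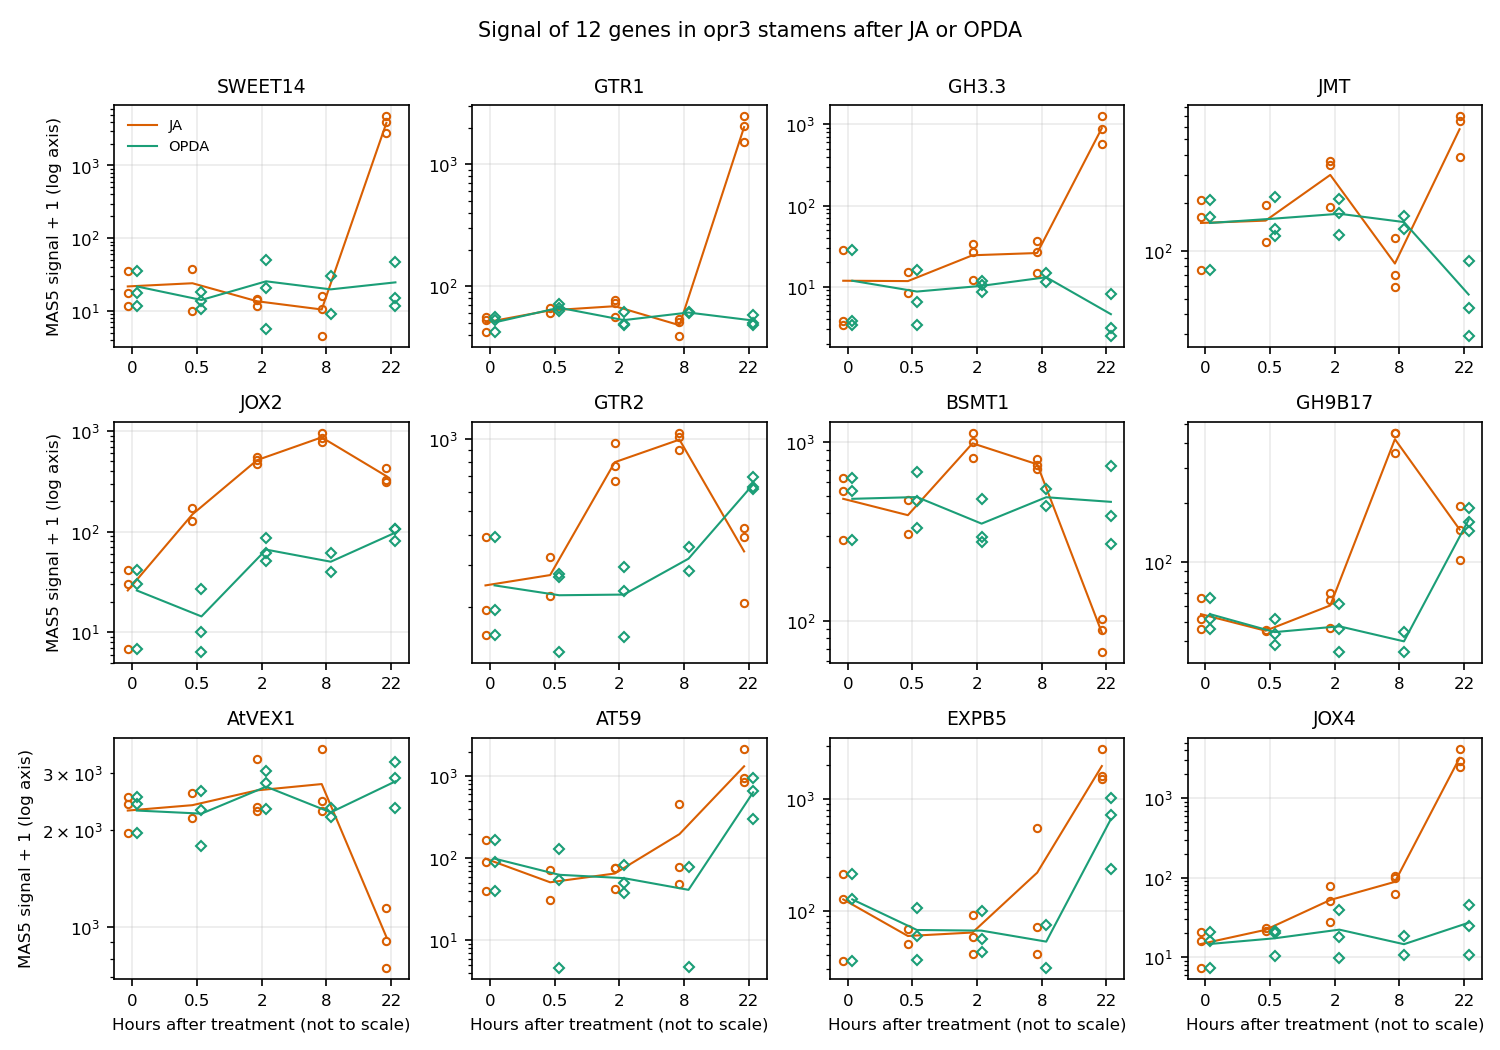
MAS5 signal + 1 (log axis) of 12 genes in opr3 stamens against hours after treatment (spaced evenly, not to scale), with each array as a symbol and lines through the group means. JA is orange, OPDA green, and untreated arrays stand at 0 h for both. SWEET14, GTR1, GH3.3 and JOX4 have their highest mean at JA 22 h, JOX2, GTR2, BSMT1, GH9B17 and AtVEX1 are lower at JA 22 h than at JA 8 h, and AT59 and EXPB5 are higher at 22 h than at 8 h after both agents.

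Auxin-conjugating enzymes also split. GH3.3 (AT2G23170), which links auxin to amino acids, had signals of 26.1, 13.6 and 35.4 at 8 h and 867, 1249 and 576 at 22 h, and rose by 4.44 (95% interval 3.77 to 5.12, limma adjusted p = 1.7e-09). GH3.17 (AT1G28130), of the same family, fell from 766, 729 and 891 to 293, 128 and 292, a change of -1.76 (limma adjusted p = 2.6e-05). YUC2 (AT4G13260), an auxin synthesis enzyme, was dim and went from 25, 54.4 and 44.8 to 87.9, 101 and 80.1, a rise of 0.91 (limma adjusted p = 0.0053). IAA18, an auxin response repressor, was the fourth tested gene of this list and was not called (change -0.42). With the replicate block, or without JA 22 h replicate 1, the falls in this list came to 2 in place of 1.

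The other leading rises are of loci that the annotation used here leaves without a name. AT2G27830 went from 39.7, 30.7 and 52.3 to 2078, 2736 and 1695, a change of 5.25 (limma adjusted p = 4e-15). AT4G24380 had signals of 285, 453 and 256 at 8 h and 8485, 9282 and 5911 at 22 h, a change of 4.53 (limma adjusted p = 1.1e-12). AT1G21010, AT2G32190 and AT2G24580 rose by 4.44, 4.30 and 4.09, from 8 h signals of at most 37.5 in each. In AT3G60780 and AT3G17060 the 8 h arrays were uneven: AT3G60780 was at 41.4, 187 and 59.9 at 8 h and 2007, 2709.8 and 1641 at 22 h (change 4.44), and AT3G17060 was at 1.9, 652 and 80.1 at 8 h and 1841, 3600.2 and 1622 at 22 h (change 4.41, limma adjusted p = 0.0032). JA 8 h replicate 2 is by far the highest 8 h array for both. For all 12 leading rises the single Ws array lay between the JA 8 h and the JA 22 h arrays, a comparison with no replicate and no test, and for the 12 leading falls it lay between them for 7. Of SWEET14, for instance, the Ws signal was 1811.

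Of 18 tested pollen-expressed genes, 7 rose and 1 fell, where 8.15% and 12.2% of all probe sets did, and the median change was 0.61. The pectate lyase gene AT59 (AT1G14420) had signals of 47.1, 464 and 78.2 at 8 h and 965, 2154 and 846 at 22 h, and rose by 3.11 (limma adjusted p = 0.0036). PIPK11 (AT1G01460), a phosphatidylinositol phosphate kinase of the pollen tube tip, went from 15.5, 184 and 24.9 to 278, 598 and 229, a rise of 2.47 (limma adjusted p = 0.0086). ANX2 (AT5G28680), a receptor kinase that keeps the pollen tube from bursting early, went from 47.7, 222 and 61.6 to 338, 639 and 475 and rose by 2.20 (limma adjusted p = 0.00087). In each of these genes replicate 2 was the highest array at both times, and its 8 h signal stood well above the other two. The bZIP factor BZIP34 (AT2G42380) rose by 1.47, the actin-binding NET2C (AT5G10500) by 1.34, the actin-bundling PLIM2a (AT2G45800) by 1.80 and the reproductive actin ACT12 (AT3G46520) by 0.55. Other pollen genes in the list, among them ANX1, PLIM2b, NET2D, ACT11 and AGL66, were not called, with changes of 0.67, 0.35, 0.26, 0.19 and 0.90. With the replicate number as a block 9 of the list rose in place of 7, and AGL66 was called (limma adjusted p = 0.0029).

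The count of pollen genes called depended on single arrays. Without JA 8 h replicate 2, 10 rose and the median was 0.91. Without JA 8 h replicate 1, 3 rose (median 0.45), without JA 8 h replicate 3, 4 rose (median 0.54), and without JA 22 h replicate 2, 2 rose (median 0.45). The fall was kept in each of these. Within the scan days of replicates 1, 2 and 3 the median change of the list was 0.88, 0.51 and 0.68. The fluidics record of JA 8 h replicate 2 notes an aborted step, which among the arrays with such a record is shared by untreated replicate 2 alone. Its part in these values was not tested.

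The 1 pollen gene that fell was AtVEX1 (AT5G62850), also called SWEET5, a sugar transporter of the pollen vegetative cell. Its signals were 2467, 3571 and 2299 at 8 h and 1149, 747 and 904 at 22 h, and it fell by 1.55 (95% interval -1.97 to -1.14, limma adjusted p = 8.1e-06). JA 8 h replicate 2, the array with the highest pollen gene signals at 8 h, was also the highest for AtVEX1, whereas JA 22 h replicate 2 was the lowest. In untreated stamens the mean was 2300.4 ± 305 (SD, n = 3).

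Of 8 tested RALF-like peptide genes 2 rose (8.15% of all probe sets rose): RALFL26 (AT3G25170), from 145, 934 and 201 to 1714, 2637 and 1469.6 (change 2.56, limma adjusted p = 0.007), and RALFL25 (AT3G25165), from 464, 1729 and 495 to 2330.3, 3281 and 1731 (change 1.66, limma adjusted p = 0.012). RALF peptides are ligands of receptor kinases such as those of the pollen tube, and these 2 genes are close relatives. Cross-detection between their probe sets was not tested. Without JA 8 h replicate 1 neither was called, and RALFL25 was not called without JA 22 h replicate 2 or JA 8 h replicate 3 either (adjusted p = 0.077 and 0.069). Of 15 actin cytoskeleton genes 4 rose and 1 fell, where 8.15% and 12.2% of all probe sets did: beside NET2C, PLIM2a and ACT12, WLIM1 (AT1G10200) rose by 0.66 and NET4B (AT2G30500) fell by 0.79. Only 1 of these rises was called without JA 22 h replicate 2, without JA 8 h replicate 1 or without JA 8 h replicate 3, and 2 without JA 22 h replicate 1. The falls came to 2 without JA 8 h replicate 3. Of 11 tested AGAMOUS-like factors 1 rose (9.09%, near the 8.15% of all probe sets). It was AGL29 (AT2G34440), from 12.6, 32.0 and 12.7 to 86.4, 99.0 and 77.2 (change 1.60, limma adjusted p = 0.0022). The count was 2 with the replicate block or without JA 22 h replicate 3, and 3 without JA 8 h replicate 2.

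Wall-loosening and cytoskeletal genes rose in part, and the cells behind these signals were not tested. Of 12 tested expansin genes 4 rose and 0 fell (median change 0.45), where 8.15% and 12.2% of all probe sets did. Expansins loosen the cell wall so that it can extend under turgor. EXPB5 (AT3G60570) went from 40.3, 544 and 69.9 to 1495, 2808 and 1609.9, a rise of 3.77 (limma adjusted p = 0.00028), and EXPA24 (AT5G39310) from 27.5, 70.8 and 37.5 to 246, 466 and 164, a rise of 2.27 (limma adjusted p = 0.0005). For both, JA 8 h replicate 2 was again the highest 8 h array. EXPA8 (AT2G40610), brighter at 8 h with 576, 936 and 1006, reached 1491, 1899 and 1207 and rose by 0.87 (limma adjusted p = 0.024), and EXLA2 (AT4G38400) rose by 0.94. EXPA8 and EXLA2 lost their calls without JA 22 h replicate 2 and without JA 8 h replicate 1, which left 2 rises in the list. EXPA8 was also not called without JA 22 h replicate 1, nor EXLA2 with a pseudocount of 1 (limma adjusted p = 0.054 and 0.077). The remaining 8 tested expansins had changes between -0.13 and 0.50.

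GH9 endoglucanases, which cut glucan chains in the wall, moved in both directions: of 10 tested, 3 rose and 2 fell, where 8.15% and 12.2% of all probe sets did. GH9B11 (AT2G44560) was near 0 at 8 h, with 1.1, 21.1 and 12.8, and stood at 191, 534 and 403 at 22 h, a rise of 3.78 (95% interval 2.95 to 4.61, limma adjusted p = 6.1e-07). GH9A4 (AT3G43860) rose by 2.39, from 101, 509.7 and 144 to 922, 1698 and 861, and GH9B13 (AT4G02290) by 0.80. The falls were GH9B17 (AT4G39000), from 352, 447 and 449 to 191, 102 and 144, a change of -1.45 (limma adjusted p = 1.2e-05), and GH9B18, with a change of -0.55. GH9B17 had been at 53.8 ± 10.5 in untreated stamens (SD, n = 3) and 59.7 ± 12.2 at 2 h, so its high signal is seen at 8 h. Without JA 22 h replicate 2 or 3, or without JA 8 h replicate 3, 1 of these falls was called in place of 2.

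Of 7 tubulin genes, the subunits of microtubules, 3 rose and 0 fell, with a median of 0.34, where 8.15% and 12.2% of all probe sets did. TUA1 (AT1G64740), an alpha tubulin known for its expression in pollen and stamens, went from 409, 972 and 409.7 to 1189, 2152 and 1068, a change of 1.33 (limma adjusted p = 0.006). TUB9 (AT4G20890) rose by 0.79 and TUB5 (AT1G20010) by 0.56, with JA 8 h replicate 2 the highest 8 h array for TUA1 and TUB9 but not for TUB5. Without JA 22 h replicate 2 only 1 tubulin was called, and 2 were without JA 22 h replicate 3, JA 8 h replicate 1 or JA 8 h replicate 2. TUB5 was also not called under quantile normalization or without the signal filter. TUA6, TUB1, TUB6 and TUB7 had changes of 0.19, 0.34, 0.20 and 0.02 and were not called.

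**Figure D3:**
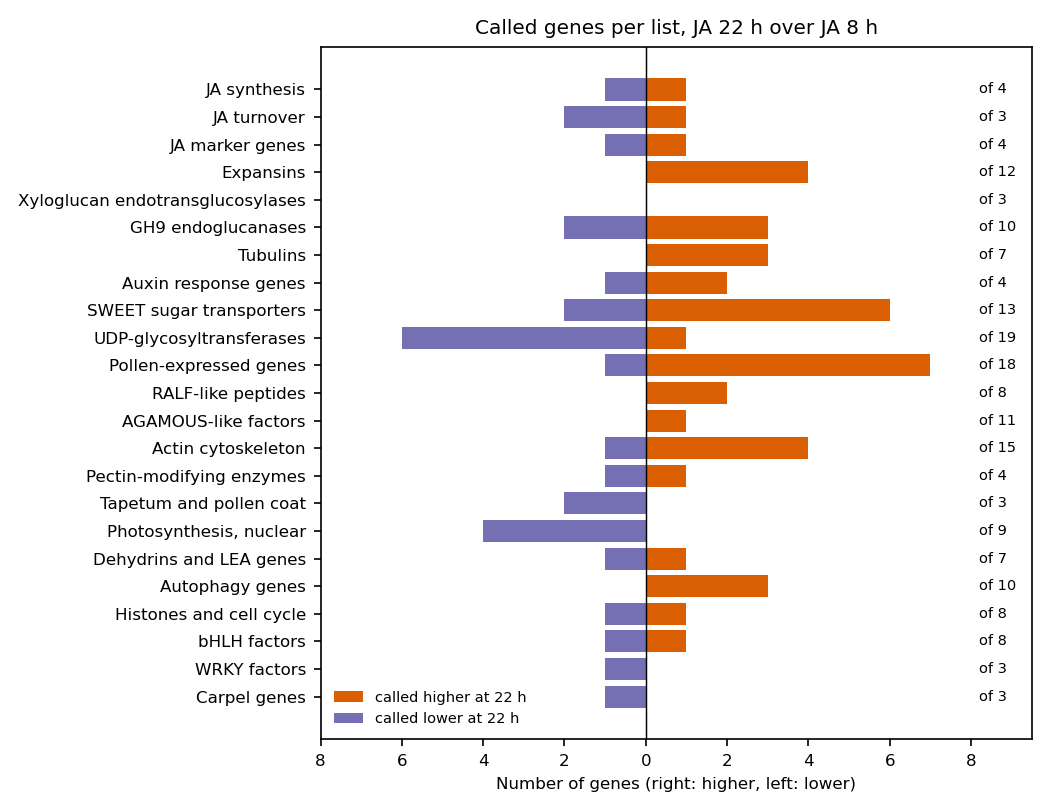
Number of genes called higher (orange, to the right) and lower (purple, to the left) at JA 22 h than at JA 8 h in each of the 23 gene lists with at least 3 tested genes. The number of tested genes stands at the right. Pollen-expressed genes have 7 rises of 18 and SWEET genes 6 of 13, while UDP-glycosyltransferases have 6 falls of 19 and photosynthesis genes 4 of 9. Of all tested probe sets 8.15% rose and 12.2% fell.

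By the same rule the largest fall was that of BSMT1 (AT3G11480), which methylates benzoic and salicylic acid to volatile esters. Its signals were 707, 804 and 744 at 8 h and 66.2, 88.0 and 102 at 22 h, and it fell by 2.94 (95% interval -3.60 to -2.28, limma adjusted p = 8.7e-07). The arrays of each time lay close together, and the 22 h mean, 85.2 ± 17.8 (SD, n = 3), was below that of untreated stamens, 482 ± 180.0. CHX19 (AT3G17630), a cation/proton exchanger, fell by 1.92, from 1455, 1412 and 1321 to 413, 219 and 499 (limma adjusted p = 2.8e-06). AT3G18360, with no name in the annotation, fell by 1.92, from 827, 802 and 797 to 264, 138 and 224 (limma adjusted p = 1.2e-06). Both genes had lain near their untreated means at 8 h, which were 1749 and 869. AT4G35670 and AT1G32250 fell by 1.87 and 1.74. AT1G66850 and AT4G04460 fell by 2.08 and 1.81, from 8 h signals of 3991, 1304 and 1637 and of 4758, 1599 and 2271, with replicate 1 far above the other two.

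Tapetum genes were low and uneven. ATA27 (AT1G75940), a tapetum beta-glucosidase, had signals of 339, 21.0 and 22.2 at 8 h and 0.8, 2.8 and 11.5 at 22 h, so that JA 8 h replicate 1 stands apart from the other five arrays. Its change of -1.95 just passed the threshold (limma adjusted p = 0.049) and was -0.87 without that array (adjusted p = 0.38). SWEET8, described above, was the other fall among 3 tested genes, where 12.2% of all probe sets fell. SWEET8 was not called without that array or without JA 22 h replicate 2 or JA 8 h replicate 3. ATA27 was not called without any 1 of the JA 22 h arrays either (adjusted p = 0.13, 0.14 and 0.055). EXL5, a pollen coat lipase, was at 116, 28.2 and 16.7 and at 18.1, 8.9 and 42.0 and was not called (change -0.65). The summed signal of the tapetum markers ATA27 and EXL5 was 38.9 to 454 at 8 h and 11.7 to 53.5 at 22 h.

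UDP-glycosyltransferases attach sugars to hormones and secondary metabolites. Of 19 tested, 6 fell and 1 rose, with a median change of -0.52, where 12.2% and 8.15% of all probe sets did. UGT84A3 (AT4G15490), of the group that acts on phenylpropanoid acids, went from 560.4, 529 and 498 to 215, 106 and 172 and fell by 1.64 (limma adjusted p = 7e-06). UGT74B1 (AT1G24100), which acts in glucosinolate synthesis, fell from 189, 136 and 158 to 53.1, 44.0 and 80.3, a change of -1.25 (limma adjusted p = 0.00016). UGT76E12 (AT3G46660) fell by 1.35, and UGT87A2, UGT73B1 and UGT76E11 had changes of -1.11, -0.84 and -0.81, each called. The falls came to 4 without JA 22 h replicate 2 and to 5 without JA 22 h replicate 1 or JA 8 h replicate 3. They came to 7 without JA 22 h replicate 3 and to 8 with the replicate block. The exception was UGT85A3 (AT1G22380), at 54.3, 32.8 and 25.6 at 8 h and 598, 572 and 318 at 22 h, which rose by 3.24 (limma adjusted p = 6.2e-08). UGT76E12 and UGT74B1 had been higher at 2 h than in untreated stamens, at 77.3 against 11.7 and at 426 against 81.4 (limma adjusted p = 5.1e-05 and 3.7e-07). Of the other groups of secondary metabolism, CYP71B6 (AT2G24180) fell by 0.76 among 2 tested cytochromes P450. The monoterpene synthase TPS24 (AT3G25810) rose from 12.7, 17.4 and 29.5 to 74.8, 248 and 337, by 2.53 (limma adjusted p = 7.6e-05), while TPS11, of the sesquiterpenes, had a change of -0.04 and was not called.

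Of 9 nuclear photosynthesis genes 4 fell and 0 rose, where 12.2% and 8.15% of all probe sets did, and the median was -0.28. In the fit to the 6 arrays alone LHCB4.2 was the 1 of these 4 still called. LHCB4.2 (AT3G08940), an antenna protein of photosystem II, fell from 129, 119 and 126 to 34.4, 39.2 and 63.1, a change of -1.22 (limma adjusted p = 5.2e-05). Smaller falls were those of RCA (AT2G39730), rubisco activase, from 766, 1123 and 1369 to 662, 720.4 and 720.2, a change of -0.58, of PSAN (change -0.58) and of LHCB4.3 (change -0.35). The summed signal of 2 markers of green tissue was 896 to 1494 at 8 h and 696 to 783 at 22 h. Without JA 8 h replicate 3, 1 of the 4 was called, and without JA 22 h replicate 1 or 2, 2 were.

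Of 7 tested dehydrin and LEA genes, which are linked to tolerance of drying and cold, 1 rose and 1 fell. Of all probe sets 8.15% and 12.2% did. COR47 (AT1G20440), a dehydrin, rose. It went from 1649, 1856 and 1611 to 7909, 8740.4 and 5292, a change of 2.06 (95% interval 1.68 to 2.45, limma adjusted p = 5.7e-08). LEA18 (AT2G35300) fell from 249.5, 268 and 303 to 177, 99.5 and 124, a change of -0.98 (limma adjusted p = 0.0035). COR15A, COR15B, LEA and LEA4-5 had changes of -0.59, -0.36, -1.41 and -0.79 and were not called. With the replicate block 4 genes of this list fell in place of 1, and 3 did without JA 22 h replicate 1 and 2 without JA 22 h replicate 3. Of 10 autophagy genes 3 rose and 0 fell, where 8.15% and 12.2% of all probe sets did. ATG8H (AT3G06420), a ubiquitin-like protein of the autophagosome membrane, went from 378, 489 and 397 to 1047, 1294 and 894, by 1.32 (limma adjusted p = 2.6e-05). ATG3 rose by 0.40 and ATG8D by 0.37. ATG3 and ATG8D lost their calls without JA 22 h replicate 1 or 2 or JA 8 h replicate 3, which left 1 rise. ATG8D was also not called without JA 8 h replicate 1 or 2 (limma adjusted p = 0.056 and 0.11). It was also lost under quantile normalization, without the signal filter, without the intensity trend and with a pseudocount of 64. Its arrays overlap between both times.

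Few regulators have a tested probe set paired with 1 gene. Of all tested probe sets 8.15% rose and 12.2% fell, and single calls in the small lists of this paragraph say little about the lists. WRKY42 (AT4G04450) fell from 77.3, 64.8 and 77.0 to 12.8, 4.1 and 29.6, a change of -1.58 (limma adjusted p = 6.9e-05), as 1 of 3 tested WRKY factors. Among 8 bHLH factors SPT (AT4G36930), a regulator of carpel growth, fell by 0.65, from 136, 91.6 and 102 to 69.4, 57.4 and 64, and bHLH34 (AT3G23210) rose by 0.72. Neither was called without JA 22 h replicate 2 or without JA 8 h replicate 1. The call of bHLH34 was also lost without JA 22 h replicate 1, without JA 8 h replicate 3 or without the signal filter, and its arrays overlap between both times. SPT was also the 1 fall among 3 tested carpel genes. With the replicate block, or without JA 22 h replicate 3, the falls were 3 among the bHLH factors and 2 among the carpel genes. In the list of histone and cell cycle genes (8 tested), the linker histone HIS1-3 (AT2G18050) fell by 0.64, and cdc2cAt (AT5G39420), a protein kinase related to cyclin-dependent kinases, rose by 2.26, from 29.9, 266 and 35.1 to 330.2, 656 and 294. The rise of cdc2cAt was not called without JA 22 h replicate 2 or JA 8 h replicate 1 (adjusted p = 0.076 in both), the fall without JA 22 h replicate 3 or JA 8 h replicate 2, and neither without JA 8 h replicate 3. Among 4 tested pectin-modifying enzymes AT59 rose, as given above, and the pectin methylesterase gene PME61 fell by 0.54, a call lost without JA 22 h replicate 1, JA 8 h replicate 1 or JA 8 h replicate 3. None of the 3 xyloglucan endotransglucosylases, 2 clock genes, 2 senescence genes and 1 gene each for gibberellin, heat shock, NAC, ERF and petal or sepal identity was called by limma. With the replicate block, or without JA 22 h replicate 1, the petal gene BPEp was called lower, and without JA 8 h replicate 2 a senescence gene was called higher. The clock gene GI was at 108, 88.4 and 102 at 8 h and 104, 94.4 and 118 at 22 h.

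The decay of the earlier response was followed with a list chosen on the contrast of JA 2 h with untreated stamens. At 2 h after JA, 312 probe sets were called (2.23% of those tested), and 280 (2.00%) were higher than in untreated stamens. This contrast holds no JA 8 h or JA 22 h array, but its test used a spread pooled over all 25 arrays, these included. From 8 to 22 h, 130 of them (46.4%) fell and 18 (6.43%) rose, against 12.2% and 8.15% of all tested probe sets. Their median change was -0.53, with quartiles of -0.90 and -0.09, where the median of all probe sets was -0.09. Within the scan days of replicates 1, 2 and 3 the median was -0.49, -0.56 and -0.49. Relative to untreated stamens the median of these probe sets came to 1.14 at 2 h after 0.27 at 0.5 h, and it was 0.86 on the JA 8 h arrays and 0.42 on the JA 22 h arrays. The value at 2 h follows from the choice of the list, and the other values share the untreated arrays used in that choice. Over all tested probe sets these medians were -0.01 at 0.5 h, -0.06 at 2 h, -0.10 at 8 h and -0.21 at 22 h. A list chosen by limma on the untreated and JA 2 h arrays alone held 219 probe sets, 206 of them shared with the 280, of which 115 (52.5%) fell and 7 (3.2%) rose from 8 to 22 h, with a median of -0.61. A list chosen without the array titled opr2 held 215, 211 of them shared, of which 103 (47.9%) fell and 10 (4.65%) rose, with a median of -0.55. Both lists were added after seeing the data. Of the 32 probe sets that were lower at 2 h (0.229% of those tested), 7 fell further from 8 to 22 h and 1 rose, with a median of -0.16.

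**Figure D4:**
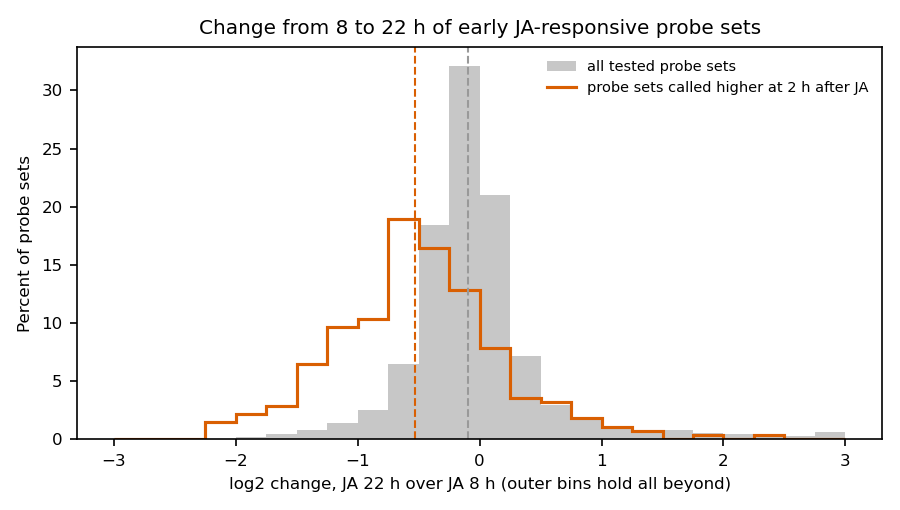
Percent of probe sets by log2 change from JA 8 h to JA 22 h, in steps of 0.25, for the 280 probe sets higher at 2 h after JA than in untreated stamens (orange line) and for all 13992 tested (grey). Dashed lines mark the medians, -0.53 for the early probe sets and -0.09 for all.

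Within the list, the largest falls by the naming rule were those of 4 loci that the annotation used here leaves without a name. AT2G40460 was at 3439.5 ± 108 at 2 h (SD, n = 3) and then at 2263, 1484 and 1972 at 8 h and 739.8, 338 and 582 at 22 h, and it fell by 1.80 (limma adjusted p = 0.00014). AT1G14130 fell by 1.79, from 397, 298 and 392 to 94.0, 99.3 and 84.3 (limma adjusted p = 3.1e-08), and its untreated mean was 64.6 ± 11.7. AT2G32150 fell by 1.76 and AT5G12890 fell by 1.72, the latter from 649, 509.6 and 570.3 to 178, 134 and 182. On each 22 h array AT5G12890 was still above its untreated mean of 28.7 ± 10 (SD, n = 3), and AT2G32150 above its own of 147 ± 58.3. JOX2, OPCL1, GTR2, UGT74B1 and UGT76E12, described above, belong to the same list.

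Some early genes rose between 8 and 22 h. AT5G65380 was at 59.0 in untreated stamens, 102 at 2 h, 657, 611 and 553 on the 8 h arrays and 2663, 2335 and 1769.5 on the 22 h arrays, a rise from 8 to 22 h of 1.85 (limma adjusted p = 4e-09). AT4G16146 rose by 1.45, from 339, 322 and 362 to 1109, 1044 and 750 (limma adjusted p = 4.6e-06). AT2G39210 and AT5G42860 rose by 0.98 and 0.81. The call of AT2G39210 was lost without JA 8 h replicate 2 (adjusted p = 0.057).

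OPDA-treated stamens of the same 2 times show which of these changes also occurred after the precursor that opr3 plants cannot reduce through OPR3. Arrays of both agents are separate, so the changes can be set against each other. From 8 to 22 h after OPDA, 879 probe sets passed (6.28%), of which 553 rose (3.95%) and 326 fell (2.33%). At an unadjusted p under 0.05 limma gave 21.4%. This comparison has 2 arrays at 8 h, and without the first of them, which has no array record, 1 probe set was called higher and 2 lower. Without OPDA 22 h replicate 2 it was 20 and 20, and without OPDA 8 h replicate 3 it was 313 and 150. The change from 8 to 22 h differed between JA and OPDA for 753 probe sets (5.38%), more positive after JA for 321 (2.29%) and more negative for 432 (3.09%). With the replicate block these were 431 and 653, and without OPDA 8 h replicate 1 they were 195 and 214.

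Of the 12 leading rises, 11 differed, where 2.29% of all probe sets were more positive after JA. These genes were chosen for their large change after JA, which is part of the difference. A positive difference is therefore largely built into the choice. SWEET14 was at 18.9 ± 15.1 at 8 h after OPDA (SD, n = 2) and at 23.8 ± 19.6 at 22 h (SD, n = 3), and its change after JA exceeded that after OPDA by 7.08 (95% interval 5.89 to 8.27, limma adjusted p = 2.2e-08). GTR1 was at 59.9 ± 1.06 and 51.3 ± 5.18 after OPDA, a difference of 5.17 (limma adjusted p = 3.5e-12). GH3.3 was at 12.1 ± 2.12 and 3.6 ± 3.13, a difference of 4.97 (limma adjusted p = 5.4e-07). These 3 genes were thus low at both times after OPDA, and their differences were called in each fit that left out 1 array. AT4G24380 also rose after OPDA, by 0.93 (limma adjusted p = 0.022), and its change after JA was larger by 3.59. AT3G17060 was the exception, with a rise of 4.21 after OPDA (limma adjusted p = 0.028) and a difference of 0.20 (95% interval -2.95 to 3.35).

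Pollen genes AT59, PLIM2a and ANX2, the expansin gene EXPB5 and the peptide gene RALFL26 rose after both agents. AT59 rose by 3.78 after OPDA, EXPB5 by 3.17, RALFL26 by 3.20, PLIM2a by 3.24 and ANX2 by 1.89 (limma adjusted p = 0.0087, 0.013, 0.012, 0.0077 and 0.022). At 8 h after OPDA, replicates 1 and 3 were at 3.7 and 77.0 for AT59 and at 29.6 and 74.1 for EXPB5. Replicate 1 is the array without an array record, on which calls after OPDA depend, as given above. The difference from the change after JA was not called for any of these 5, but its intervals are wide: for AT59 it was -0.67 with an interval of -2.93 to 1.59, and for PLIM2a -1.45 with -3.32 to 0.43. In the list of 18 pollen-expressed genes 11 rose after OPDA and 7 after JA, with medians of 1.09 and 0.61, where 3.95% and 8.15% of all probe sets rose. Without OPDA 22 h replicate 2, 20 probe sets in all were called higher after OPDA, so both counts cannot be ranked against each other. AtVEX1 was the member of the list whose change differed: it was at 2270.3 ± 96.0 at 8 h (SD, n = 2) and 2833 ± 456 at 22 h (SD, n = 3) after OPDA, a difference of -1.86 (95% interval -2.48 to -1.24, limma adjusted p = 0.00031). ADPG1 rose after OPDA, by 1.198 (limma adjusted p = 0.039), and its 22 h mean was 401 ± 56.6 after OPDA and 1552 ± 259 after JA (SD, n = 3 each).

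**Figure D5:**
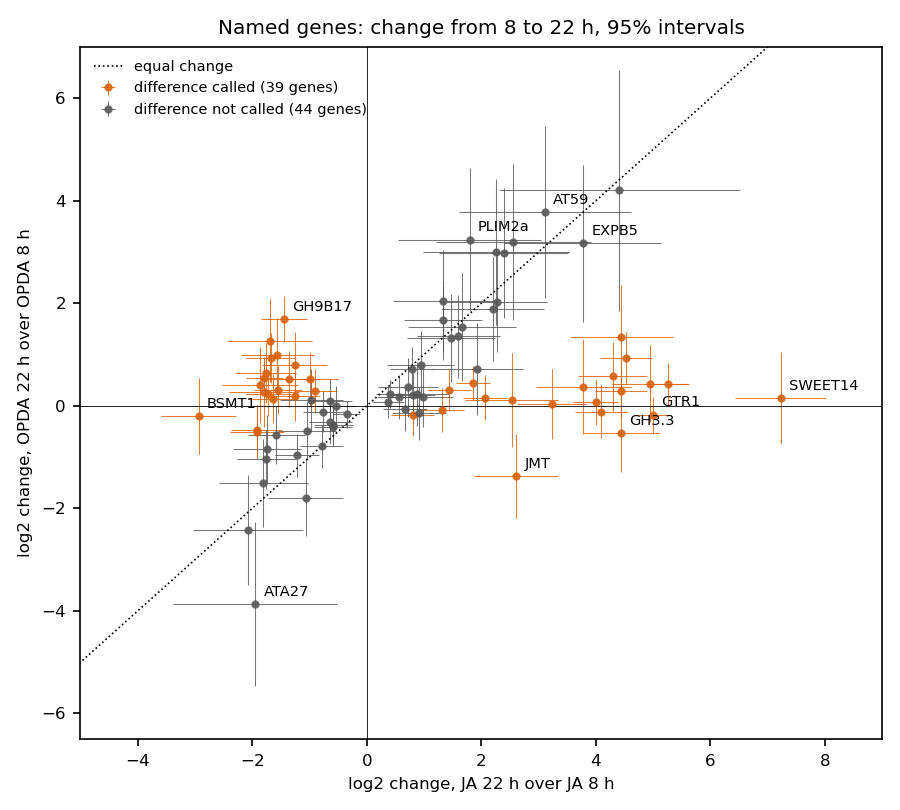
Log2 change from 8 to 22 h after JA (horizontal) and after OPDA (vertical) for the 83 named genes, with 95% intervals from the limma fit. The dotted line marks equal change, and orange marks the 39 genes whose difference between agents was called. Genes were named by their change after JA or by the difference itself, so this count follows in part from the choice. SWEET14, GTR1 and GH3.3 lie far right near 0 on the vertical axis, and the intervals of AT59 and EXPB5 cross the dotted line. GH9B17 and JMT fall on opposite sides of 0 for both agents.

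Some genes were called in opposite directions. GH9B17 rose by 1.70 after OPDA (limma adjusted p = 0.00059), from 39.0 ± 6.51 (SD, n = 2) to 163 ± 22.6 (SD, n = 3), where it fell after JA. The difference was -3.15 (limma adjusted p = 1.6e-07), and the 22 h means after both agents, 145 and 163, were close. JMT fell by 1.37 after OPDA (limma adjusted p = 0.041) and rose after JA, a difference of 3.98 (limma adjusted p = 4.1e-05). AT3G20340, with no name in the annotation, also rose after OPDA, by 0.93, where it fell by 1.67 after JA (limma adjusted p of the difference = 1.1e-05). Among the falls after JA, BSMT1 had an OPDA change of -0.20 (difference -2.74, limma adjusted p = 0.00076), GTR2 of 0.999, JOX2 of 0.80, UGT84A3 of 0.14 and AT3G01350 of 1.27, none of which was called after OPDA, and for all 5 the difference was called. Among the named genes, falls called after both agents were those of ATA27, SWEET8, GH3.17, LHCB4.2, NET4B, AT1G66850 and AT4G04460, with differences that were not called. Calls after OPDA depend on OPDA 8 h replicate 1, as given above for all probe sets. The 280 early probe sets had a median change of 0.12 from 8 to 22 h after OPDA, where it was -0.53 after JA.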

How the data were processed

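Stamen RNA was hybridised to ATH1 arrays of 22810 probe sets. The deposited values are linear intensities per probe set, made with MAS5 (per the submitters' processing notes, version not given) and scaled to a target of 125 (per the labels). The deposited array records, used only for scan day, chip lot and the fluidics record, hold no expression values. Settings of MAS5 other than the target are not given in the sources used here.

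From the deposited intensities log2(signal + 16) was computed, 64 control probe sets were dropped, and probe sets that reached a signal of 50 on 2 or more arrays were fitted with limma 3.58.1 (R 4.3.3), 1 mean per group, an intensity trend and 16 residual degrees of freedom. JA 0.5 h replicates 1 and 2 hold identical values at 100% of probe sets and were counted once. The Ws array stayed outside the fit. The median signal was 47.5 to 51.4 on the 6 JA 8 h and 22 h arrays. Platform annotation gives 1 gene for 13513 probe sets, several for 503 and no gene for 8794, and 13436 matched a RefSeq gene (TAIR10.1). OPR3 is not analysed here, so the mutant label was not checked against it. JOX2, JOX4, TPS11, TPS24 and EXL5 are commonly used names of loci that those tables leave unnamed. Of several probe sets for a gene, the one with the highest mean signal was used.

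Named are the 12 largest rises and falls among called, non-overlapping genes with a group mean of at least 100, up to 4 called members per list (by adjusted p), and the 4 largest called changes each way in the early list and (mean of at least 100) in the difference between agents. SWEET4, SWEET7, SWEET10, GH9B18, UGT87A2, UGT73B1, UGT76E11, PIPK11, ACT12 and genes not called were named after their values were seen. Members and lists were chosen with earlier results of these data known. Same-numbered JA 8 h and JA 22 h arrays share a scan day, which pairs them, and a replicate block was run. They deviate together from their group means (r = 0.21, 0.49 and 0.45 over 13992 probe sets, which are not independent). For JA 8 h replicate 1 with JA 22 h replicate 3 r was nearly as high as for the replicate 1 pair, at 0.17. The other unlike-numbered pairs gave -0.465 to -0.063. Other alternatives changed the pseudocount, the filter, the scaling, the groups fitted, blocks for scan day or chip lot, the spread model and the arrays. The fit was tested on simulated data.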

Additional observations from a re-analysis of the deposited data

Results flagged for a closer look

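The results of this section are changes from 8 to 22 h that differed between JA and OPDA by the limma test of the difference (JA change minus OPDA change, log2 scale, adjusted p under 0.05). The difference was positive for 321 probe sets (2.29%) and negative for 432 (3.09%). Named genes were chosen by their change after JA or by this difference, so their calls follow in part from the choice. The calls lean on the 2 OPDA 8 h arrays: without the first of them they were 195 and 214. Among named genes the change was more positive after JA for SWEET14 (7.08), GTR1 (5.17), GH3.3 (4.97), AT2G27830 (4.83), JOX4 (4.52), AT2G24580 (4.2), AT1G21010 (4.14), JMT (3.98), SWEET13 (3.93), AT2G32190 (3.72), AT4G24380 (3.59), GH9B11 (3.41), UGT85A3 (3.21), AT3G60780 (3.10), TPS24 (2.42), COR47 (1.90), AT5G65380 (1.40), ATG8H (1.39), AT4G16146 (1.14) and GH9B13 (0.98). It was more negative after JA for GH9B17 (-3.15), AT3G01350 (-2.96), BSMT1 (-2.74), AT3G20340 (-2.60), GTR2 (-2.56), AT2G32150 (-2.40), AT1G14130 (-2.34), AT4G35670 (-2.27), AT2G40460 (-2.08), JOX2 (-2.05), AT5G12890 (-1.96), UGT76E12 (-1.87), AtVEX1 (-1.86), UGT84A3 (-1.79), LEA18 (-1.50), AT3G18360 (-1.45), UGT74B1 (-1.44), CHX19 (-1.41) and OPCL1 (-1.19). Without OPDA 8 h replicate 1 the differences of AT3G18360, CHX19, OPCL1, TPS24, LEA18, AT4G16146 and GH9B13 were not called, and that of GH9B13 was also lost without several other single arrays. The other differences were called in each fit that left out 1 array. In the fit to the compared groups alone those of CHX19, TPS24 and GH9B13 were not called (limma adjusted p = 0.076, 0.057 and 0.12).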

How the results depend on the processing

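For JA 22 h over JA 8 h, leaving out 1 array gave 703 to 1258 rises and 892 to 1751 falls, with the lowest counts without JA 22 h replicate 2. A fit to the 6 arrays alone gave 861 falls, and a change of at least 2-fold as a further condition gave 647 rises and 376 falls. The replicate block gave 1445 rises and 2291 falls, and with the 6 arrays alone, a choice made after seeing the data, 1349 and 1611. The block in the fit to all groups ended no call of a named gene, and in the 6 arrays alone it ended those of LHCB4.3, ATG3 and ATG8D (limma adjusted p = 0.095, 0.057 and 0.092). For OPDA the counts were 5 and 7 with chip lot as a block, 49 and 48 with scan day, 361 and 173 in the compared groups alone and 1 to 647 and 2 to 411 without 1 array, and 167 falls were of at least 2-fold. The difference between agents gave 207 and 220 probe sets with chip lot, 200 more positive at a mean signal of at least 100, 653 more negative with the replicate block, and 195 to 334 and 214 to 460 without 1 array. Of the 280 early probe sets, 63 fell and 7 rose by at least 2-fold, and without 1 array 90 to 128 fell and 12 to 17 rose. Of the 32 lower at 2 h, 4 fell by at least 2-fold, 6 to 8 fell and 1 to 2 rose without 1 array, and 2 rose under 75th percentile scaling, median centring, the replicate block and scan day. OPDA 8 h replicate 1 has no scan day or chip lot on record, so the fits with either block left it out. They thus rest on 1 OPDA 8 h array. Their counts for OPDA and for the difference between agents cannot separate the block from the loss of that array. The cause of the shifts in the counts of this section was not tested. With the 2 h lists chosen on their own 6 arrays or without the array titled opr2, both added after seeing the data, 7 and 10 of the higher probe sets rose, and of the lower ones 0 rose under either and 1 and 4 fell. Of 91 results for single genes, 31 lost their call in at least 1 fit and none changed direction. These results are the changes after JA of the 83 named genes and 8 of the differences between agents, so losses among the other differences are not counted here. A further condition of 2-fold ended 23 calls, and 20 were not tested at a mean signal of at least 100. Rises made up 42.2% of the calls under quantile normalization, 47.2% under 75th percentile scaling and 49.0% under median centring.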
